A study of Rattus norvegicus with 6 samples.

Results

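The carnitine shuttle carries long-chain fatty acids into mitochondria, and malonyl-CoA holds it in check. The set described here has 9 genes, Slc22a5, Cpt1a, Cpt1b, Slc25a20, Cpt2, Crat, Mlycd, Acaca and Acacb, of 10411 genes named on the array. They were taken by gene symbol from the array's annotation, which gave 11 probe sets for the 9 genes, 2 each for Cpt1a and Acaca and 1 for every other gene. Total RNA from the left ventricle was measured on 1 single-colour Affymetrix array per rat, in 3 rats labelled diabetic and 3 labelled normal. For neither group do the labels give the strain, sex, age, feeding state, or the way or duration of diabetes, and they list no treatment. The number of arrays limits the precision, and a signal from whole ventricle cannot tell more RNA per cell from more cells of a type.

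Long-chain fatty acids are the main fuel of the adult heart, and their acyl-CoA esters cannot cross the inner mitochondrial membrane. Carnitine palmitoyltransferase 1 on the outer membrane moves the acyl group to carnitine, a translocase exchanges acylcarnitine for free carnitine across the inner membrane, and carnitine palmitoyltransferase 2 returns the acyl group to CoA inside. Malonyl-CoA, made by the acetyl-CoA carboxylases and removed by malonyl-CoA decarboxylase, inhibits carnitine palmitoyltransferase 1 and so sets the rate of entry.

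None of the 11 probe sets passed the test between diabetic and normal ventricles, but the genes did not all look alike. The mitochondrial transferases, the translocase and malonyl-CoA decarboxylase had higher signals in diabetic ventricles, by 1.22 to 1.51-fold in the means. The ratio of the means was 0.94 for Slc22a5 and 0.95 and 1.04 for the Acaca probe sets, and Acacb had a ratio of 1.23 with overlapping groups. At 6 of the 11 probe sets (Cpt1a at 1 of 2, Cpt1b, Cpt2, Slc25a20, Crat and Mlycd) the lowest diabetic array exceeded the highest normal array, which was so at 12.1% of the 9518 tested probe sets. The reverse held at 0 of 11, against 13.7% of those tested.

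The sequences upstream of 4 members are shown because 3 of them (Crat, Slc25a20 and Mlycd) were higher in diabetic than in normal ventricles without overlap, while Acacb overlapped between the groups. Cpt2 and the dimmer Cpt1a probe set were also without overlap, and Slc22a5 also overlapped. Their windows are counted below but not printed, so the printed windows are a choice and not a comparison. Each is the 250 bases before the RefSeq gene start (build GRCr8), 5' to 3' on the gene's strand. Capitals mark GGGCGG, the GC box, and AGGTCA, the half-site bound by many nuclear receptors, each on either strand (CCGCCC and TGACCT on the other).
Crat, chr3:34087100-34087349, minus strand: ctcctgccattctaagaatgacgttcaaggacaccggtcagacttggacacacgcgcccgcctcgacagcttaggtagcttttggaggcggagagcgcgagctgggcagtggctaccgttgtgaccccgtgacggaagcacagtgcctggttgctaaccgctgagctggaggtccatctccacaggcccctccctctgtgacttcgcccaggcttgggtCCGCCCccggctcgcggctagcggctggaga
Slc25a20, chr8:118243323-118243572, plus strand: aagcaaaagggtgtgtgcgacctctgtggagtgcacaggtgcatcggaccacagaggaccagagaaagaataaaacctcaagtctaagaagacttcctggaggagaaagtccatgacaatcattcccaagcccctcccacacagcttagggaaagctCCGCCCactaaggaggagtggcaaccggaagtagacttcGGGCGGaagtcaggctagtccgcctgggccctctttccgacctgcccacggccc
Mlycd, chr19:64356332-64356581, plus strand: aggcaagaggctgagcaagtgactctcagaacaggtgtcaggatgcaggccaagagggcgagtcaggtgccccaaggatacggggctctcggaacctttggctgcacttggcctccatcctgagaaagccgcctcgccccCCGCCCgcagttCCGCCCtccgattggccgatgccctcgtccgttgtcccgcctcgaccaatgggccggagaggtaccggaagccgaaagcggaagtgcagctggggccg
Acacb, chr12:48138215-48138464, minus strand: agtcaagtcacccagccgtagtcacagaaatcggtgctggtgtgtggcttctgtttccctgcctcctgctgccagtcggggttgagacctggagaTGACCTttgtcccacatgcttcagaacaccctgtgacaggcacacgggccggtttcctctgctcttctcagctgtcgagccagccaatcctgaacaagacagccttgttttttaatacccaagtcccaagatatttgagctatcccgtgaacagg
RefSeq windows were at hand for 7 of the 9 genes (Cpt1a, Cpt2, Slc25a20, Crat, Slc22a5, Mlycd and Acacb). The windows of Cpt1a and Cpt2 lie inside the RefSeq span of the gene, and that of Slc22a5 reaches into it. Unlike the 4 printed, they are therefore not the bases just before the outermost gene start. All 7 are counted here. The GC box stood in 5 of these 7 (Cpt2, Slc25a20, Crat, Slc22a5 and Mlycd), against 30.5% of all 33469 windows of that length, with 3 copies each for Cpt2 and Slc22a5, 2 each for Slc25a20 and Mlycd, 1 for Crat and 0 for Cpt1a and Acacb. The base composition of these windows differs too, with 63.6% G and C for Crat, 56.4% for Slc25a20, 65.2% for Mlycd and 53.6% for Acacb. It was 45.6% for Cpt1a, 66.8% for Cpt2 and 74.4% for Slc22a5, with a median of 51.2% over all windows. AGGTCA was found in 1 of the 7, Acacb, against 14.1% of all windows. The sequence AGGTCANAGGTCA, a direct repeat spaced by 1 base to which PPAR and RXR bind, was in 0 of the 7 and in 0.0508% of all windows. CCAAT, searched on both strands, was in Mlycd and Acacb and in 34% of all windows. None of the 4 windows printed held both a GC box and a half-site, so the marked stretches could not overlap. These letters describe the windows only, and no match says nothing of sites elsewhere.

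Slc22a5 encodes the plasma membrane transporter that takes carnitine into the cell. Its probe set (1367950_at) read 231.7, 116.6 and 177.8 in diabetic ventricles 1, 2 and 3, against 218.5, 150.2 and 188.6 in normal ventricles 1, 2 and 3. The groups overlapped fully, with the highest and the lowest value both in diabetic ventricles. Values were compared as log2(signal + 16) with limma across all tested probe sets, two-sided, and a Benjamini-Hochberg adjusted p under 0.05 was the threshold for a call. The log2 difference, diabetic minus normal as in all that follow, was -0.11 ± 0.24 (SE, 3 arrays per group), with a 95% interval of -0.65 to 0.44 (limma adjusted p = 0.853).

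Cpt1b encodes the muscle form of carnitine palmitoyltransferase 1, the step that malonyl-CoA inhibits. Its probe set (1367742_at) read 10223.9, 8889.3 and 9228.5 in diabetic ventricles, against 8177.8, 8312.4 and 6710.9 in normal ventricles. The lowest diabetic array was only a little above the highest normal array, and normal 3 was the lowest of all. The means were 9447 ± 694 in diabetic and 7734 ± 888 in normal ventricles (SD, n = 3 each), a ratio of 1.22. The log2 difference was 0.29 ± 0.15, with an interval of -0.05 to 0.64 (limma adjusted p = 0.327). After quantile normalization between arrays, Cpt1b no longer kept the groups apart.

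Cpt1a, the form best known from liver, had the largest log2 difference of the 9 genes, at the dimmer of its 2 probe sets. That probe set (1367836_at) read 1485.7, 1366.3 and 1048.3 in diabetic ventricles, against 953.8, 883.5 and 745.9 in normal ventricles. All 3 diabetic arrays lay above all 3 normal arrays, with diabetic 3 close to normal 1. The means were 1300.1 ± 226 and 861 ± 106 (SD), a ratio of 1.51, and the log2 difference was 0.58 ± 0.18 with an interval of 0.17 to 0.98 (limma adjusted p = 0.121). The brighter probe set (1386946_at) read 1749.1, 1787.1 and 1360.8 in diabetic ventricles, against 1341.2, 1429.9 and 941.8 in normal ventricles. There the groups overlapped, since diabetic 3 was below normal 2, and the log2 difference was 0.41 ± 0.20 (limma adjusted p = 0.299). Both probe sets are annotated to the same transcript record, and both put diabetic 3 lowest among the diabetic arrays and normal 3 lowest among the normal ones.

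Slc25a20, the carnitine-acylcarnitine translocase of the inner membrane, read 3307.0, 3593.5 and 3786.4 in diabetic ventricles, against 2833.3, 2351.8 and 2434.7 in normal ventricles (1398249_at). The lowest diabetic array was above the highest normal array, and here normal 3 did not stand below the other normal arrays. The means were 3562 ± 241 and 2540 ± 257 (SD), a ratio of 1.40. The log2 difference was 0.49 ± 0.15, with an interval of 0.16 to 0.82 (limma adjusted p = 0.111).

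Cpt2, which rebuilds acyl-CoA on the matrix side, read 4411.9, 3946.4 and 3723.2 in diabetic ventricles, against 3294.4, 3519.6 and 2806.6 in normal ventricles (1386927_at). The groups were apart by a narrow gap between diabetic 3 and normal 2. The log2 difference was 0.33 ± 0.15, with an interval of -0.02 to 0.68 (limma adjusted p = 0.273). Cpt2 and Cpt1b, the enzymes at either end of the shuttle, had the most similar profiles of any 2 member probe sets over the 6 arrays, with a root mean square difference of 0.05 between their centred log2 values.

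Crat, carnitine acetyltransferase, moves short acyl groups between CoA and carnitine and so buffers acetyl-CoA. Its probe set (1371886_at) read 4667.7, 4902.8 and 4441.9 in diabetic ventricles, against 3571.8, 3479.6 and 2967.1 in normal ventricles. The gap between the groups was wide beside the spread of the diabetic arrays. The means were 4671 ± 230 and 3340 ± 326 (SD), a ratio of 1.40. The log2 difference was 0.49 ± 0.14, with an interval of 0.16 to 0.81 and the lowest adjusted p of the 11 probe sets (limma adjusted p = 0.109).

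**Figure D1:**
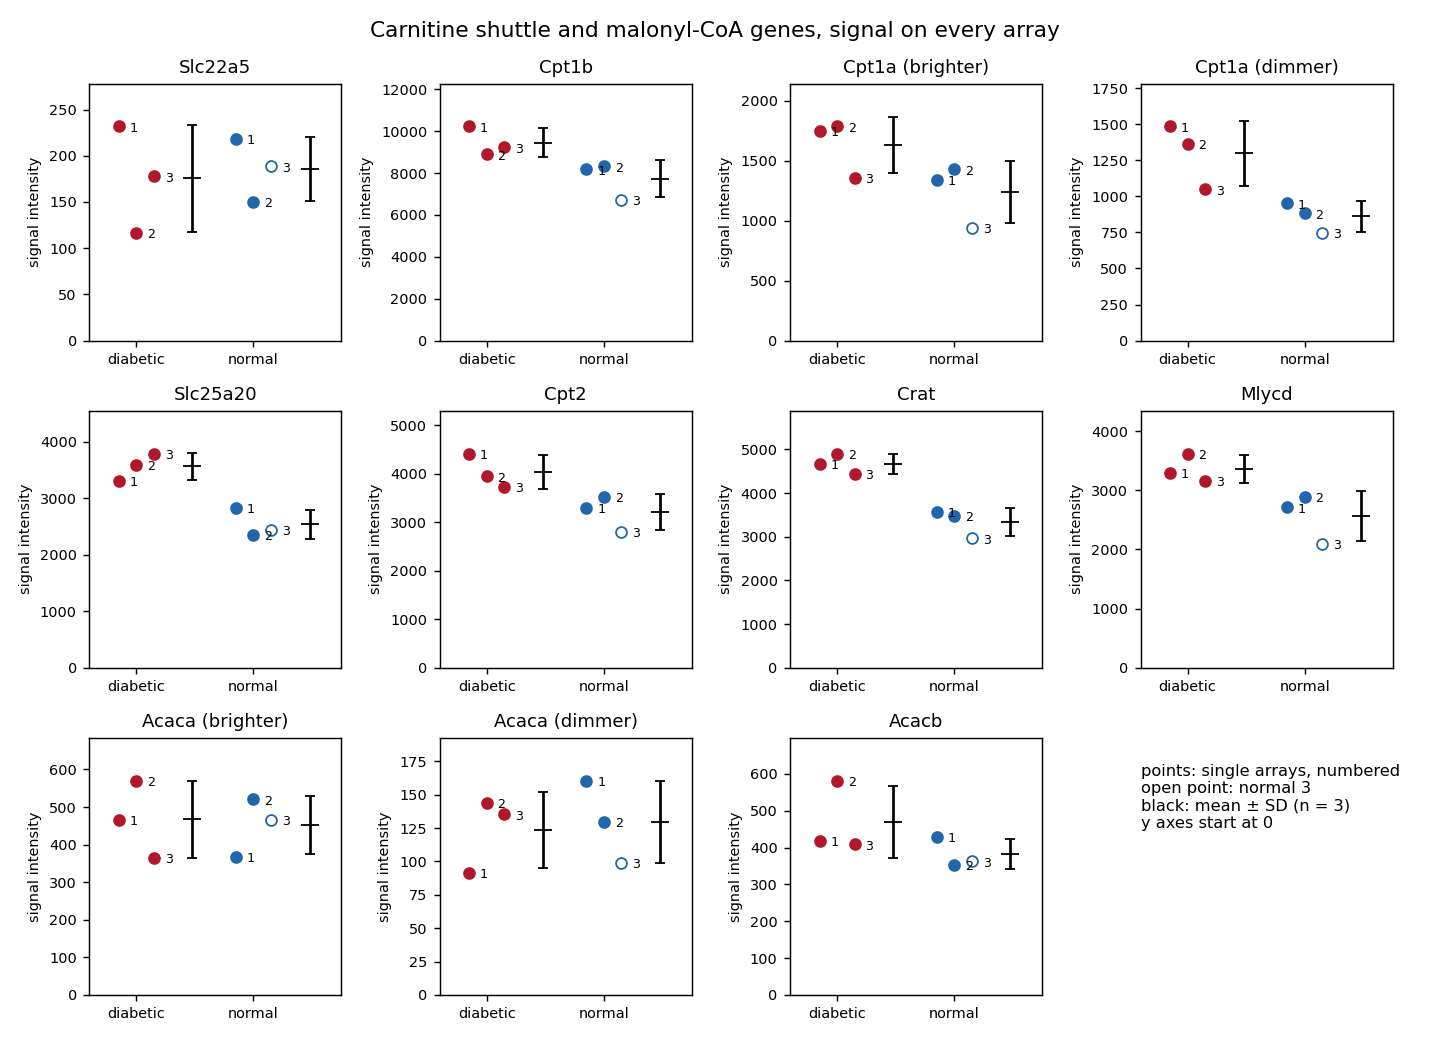
Signal intensity (linear y axes from 0) of each of the 11 probe sets on every array, diabetic left and normal right, with numbered points for single arrays, an open point for normal 3, and black bars for mean ± SD (n = 3). Diabetic arrays lie above normal ones without overlap for Cpt1b, the dimmer Cpt1a probe set, Slc25a20, Cpt2, Crat and Mlycd, and the groups overlap in the other 5 panels.

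Mlycd, malonyl-CoA decarboxylase, which removes the inhibitor of the shuttle, read 3292.2, 3620.5 and 3161.3 in diabetic ventricles, against 2710.6, 2889.0 and 2094.5 in normal ventricles (1367638_at). The groups did not overlap, and normal 3 was the lowest of all. The means were 3358 ± 237 and 2565 ± 417 (SD), a ratio of 1.31, and the log2 difference was 0.40 ± 0.17 with an interval of 0.02 to 0.77 (limma adjusted p = 0.223).

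The genes that make malonyl-CoA did not show the same separation. Acacb, the acetyl-CoA carboxylase isoform tied to the mitochondrial outer membrane and to control of the shuttle, read 417.8, 581.1 and 408.5 in diabetic ventricles, against 429.4, 353.8 and 363.0 in normal ventricles (1369328_at). Diabetic 2 stood high and the other 2 diabetic arrays were below normal 1. The log2 difference was 0.27 ± 0.18, with an interval of -0.13 to 0.68 (limma adjusted p = 0.438). That is close to the 0.29 of Cpt1b, whose groups did not overlap. The test of Mlycd relative to Acacb, given further on, could not have passed with so few arrays, so it does not decide whether they differ.

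Acaca, the cytosolic carboxylase that feeds fatty acid synthesis, read 465.9, 569.8 and 365.5 in diabetic ventricles, against 368.0, 520.1 and 465.7 in normal ventricles at its brighter probe set (1370893_at). The groups overlapped almost completely, and the log2 difference was 0.04 ± 0.20 (limma adjusted p = 0.939). The dimmer probe set (1387538_at) read 91.4, 143.9 and 135.4 in diabetic ventricles, against 160.5, 129.7 and 99.2 in normal ventricles. It lay just above the filter for dim probe sets, a mean signal of 117.6, and its log2 difference was -0.06 ± 0.21 (limma adjusted p = 0.907). The intervals of both, -0.42 to 0.50 and -0.55 to 0.42, leave room for changes of the size seen for Crat in one direction or the other.

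**Figure D2:**
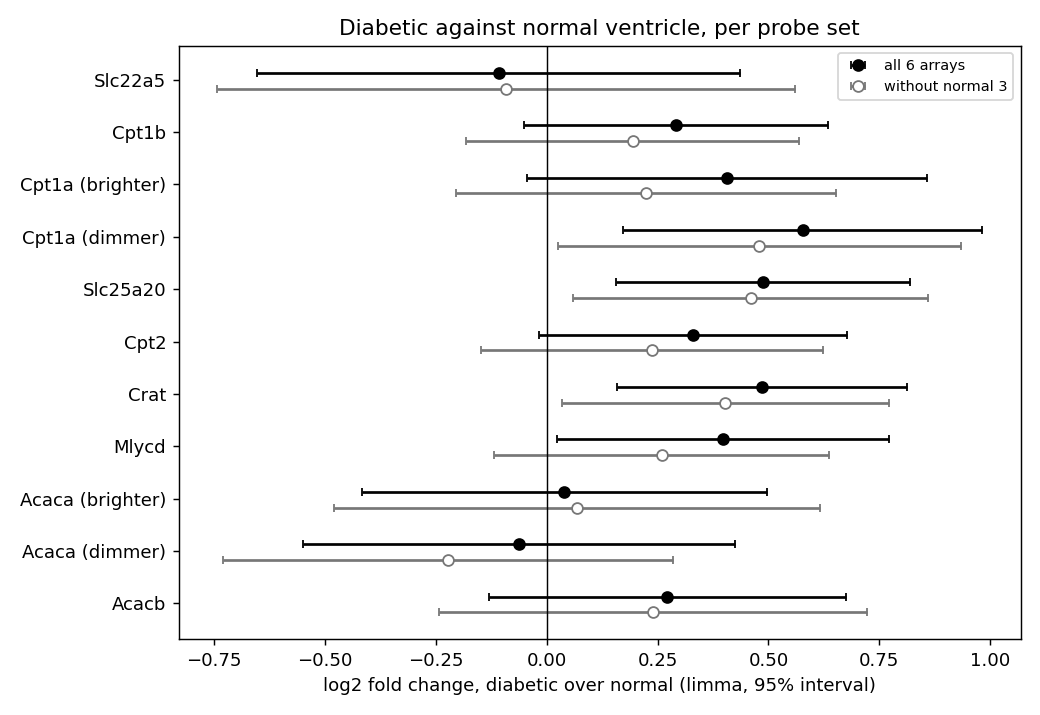
Log2 fold change, diabetic over normal, of each probe set with its 95% limma interval, from all 6 arrays (filled) and from 5 arrays without normal 3 (open). Intervals from 6 arrays lie above 0 for the dimmer Cpt1a probe set, Slc25a20, Crat and Mlycd before adjustment, and without normal 3 that holds for the first 3.

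All 9 genes passed the filter for dim probe sets with all 11 probe sets, so the counts cover every member. Of 9518 probe sets tested, 245 (2.57%) were called, 131 of them (1.38%) higher in diabetic ventricles and 114 (1.2%) lower, and 0 of the 11 member probe sets were among them. At an unadjusted p under 0.05 in the same limma fit there were 4 of 11, namely the dimmer Cpt1a probe set, Slc25a20, Crat and Mlycd, while 19.9% of all tested probe sets reached that level. The log2 difference was above 0 at 9 of 11 member probe sets and at 47.9% of all tested ones. The median log2 difference was 0.33 over the 11 probe sets and -0.01 over all tested ones. With an intensity trend in limma's variance model, 525 probe sets (5.52%) were called, and Crat (adjusted p = 0.0389) and Slc25a20 (adjusted p = 0.0429) were among them, but with normal 3 left out that setting called 0 of 11.

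The third normal array had the lowest signal of the 3 normal arrays at 7 of 11 member probe sets, against 34.5% of all tested probe sets. It was lower than the mean of normal 1 and 2 by 0.55 on the log2 scale at the brighter Cpt1a probe set and 0.29 at the dimmer one, by 0.48 at the dimmer Acaca probe set, and by 0.42 for Mlycd, 0.30 for Cpt1b, 0.28 for Cpt2 and 0.25 for Crat. The same array held very low values for Pdk4, the kinase that shuts pyruvate dehydrogenase, and for Angptl4, an inhibitor of lipoprotein lipase. These genes were picked because they were known to be low in normal 3, so they are no separate evidence about that array. Pdk4 read 12671.1, 15213.9 and 15205.5 in diabetic ventricles, against 8462.3, 9237.4 and 1641.8 in normal ventricles, and Angptl4 read 1535.1, 2835.4 and 2442.9, against 927.2, 1083.3 and 72.7.

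Without normal 3, 96 probe sets (1.01%) were called and again 0 of 11 member probe sets. The limma log2 differences then were 0.46 for Slc25a20 (adjusted p = 0.273), 0.40 for Crat (0.297) and 0.48 for the dimmer Cpt1a probe set (0.312). They were 0.26 for Mlycd, 0.24 for Cpt2 and for Acacb, 0.22 for the brighter Cpt1a probe set and 0.19 for Cpt1b, each smaller than with all 6 arrays, while the dimmer Acaca probe set was at -0.22. The median of the 11 probe sets was 0.24, against -0.01 over all. With 1 normal array fewer, the count of probe sets without overlap, diabetic higher, can only stay or grow, and it was 6 of 11, against 15.6% of all tested probe sets. The unadjusted p was under 0.05 at 3 of 11 member probe sets and at 1429 of all 9518.

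Whether paired genes differed unequally was tested with exact two-sided permutation tests over arrays on log2 signal differences within each array, for 5 pairs, with the brighter probe set of Cpt1a and of Acaca. With 3 arrays per group the smallest p such a test allows is 0.1, so no pair could have reached 0.05. The change of Cpt1a relative to Cpt1b was 0.11 ± 0.15 on the log2 scale (SE, n = 3 per group), with the difference higher in diabetic ventricles (exact permutation p = 0.5, adjusted over the pairs 0.833). That of Acaca relative to Acacb was -0.23 ± 0.24 (exact permutation p = 0.4, adjusted 0.833), and that of Mlycd relative to Acacb 0.13 ± 0.18 (exact permutation p = 0.7, adjusted 0.875). Cpt1b relative to Cpt2 gave -0.04 ± 0.05 (exact permutation p = 0.4, adjusted 0.833), the tightest of the 5. Crat relative to Slc25a20 gave -0.002 ± 0.12 (exact permutation p = 1.0), and its sign depended on single arrays. With 1 array left out, the change of Cpt1a relative to Cpt1b ran between 0.002 (without diabetic 2) and 0.22 (without diabetic 3), that of Acaca relative to Acacb between -0.45 and -0.08 (without normal 1 and without normal 2), and that of Mlycd relative to Acacb between 0.02 and 0.27 (without normal 3 and without normal 2). None of the 5 tests passed, and with so few arrays none could have. They therefore do not show whether the paired genes are alike or differ.

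Other genes of carnitine supply and acylcarnitine handling gave 0 risen and 0 fallen of 6 tested, with a median log2 difference of 0.09 whose sign turned without normal 3 (-0.07). The 2 with the smallest p were Shmt1, a serine hydroxymethyltransferase, at 319.5 in diabetic and 203.9 in normal ventricles (means; log2 0.61 ± 0.16, limma adjusted p = 0.0832), and Slc25a45, a mitochondrial carrier, at 180.0 and 337.5 (log2 -0.88 ± 0.27, adjusted p = 0.117). Bbox1, the last enzyme of carnitine synthesis, Slc22a4 and Cpt1c lay below the filter for dim probe sets.

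Of 16 tested genes of malonyl-CoA supply and control of the carboxylases, 1 rose and 0 fell, and the median was -0.09 (-0.01 without normal 3). The 1 that rose was Nudt7, a peroxisomal hydrolase that breaks down CoA. It read 1744 in diabetic and 746 in normal ventricles (means), with a log2 difference of 1.21 ± 0.15 (limma adjusted p = 0.00727), and it was called with any 1 array left out (1.15 to 1.31, adjusted p at most 0.0335, without normal 3). Prkaa2, the alpha-2 catalytic subunit of AMP-activated protein kinase, which phosphorylates and inhibits both carboxylases, read 2995 in diabetic and 4039 in normal ventricles (log2 -0.43 ± 0.14, limma adjusted p = 0.126). Stradb, a partner of the kinase that activates it, was at 0.41 ± 0.16 (adjusted p = 0.199). Fasn, the fatty acid synthase that uses malonyl-CoA in the cytosol, was below the filter at both of its probe sets.

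Of 15 tested transcription factors and cofactors linked to shuttle genes, 0 rose and 0 fell, with a median of 0.13 (0.03 without normal 3). Mef2c, a muscle transcription factor, was at -0.50 ± 0.16 at its brightest probe set (limma adjusted p = 0.122), while another of its probe sets was at 0.44. Srebf1, a lipogenic factor, was at 0.46 ± 0.15 (adjusted p = 0.138). Ppara, the receptor that drives many shuttle genes, lay below the filter, with mean signals of 62.8 in diabetic and 104.0 in normal ventricles.

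Of 20 tested genes at the neighbouring steps of uptake, activation and beta-oxidation, 1 rose and 0 fell, with a median of 0.18 (0.12 without normal 3). Hadha, the alpha subunit of the mitochondrial trifunctional protein, was the 1 that rose (log2 0.85 ± 0.16, limma adjusted p = 0.0274), and it missed the threshold without diabetic 2 or 3 or normal 1 or 3 (0.79 to 0.96 with 1 array left out, adjusted p at most 0.104, without normal 3). Slc27a1, a fatty acid transport protein, was at 1.07 ± 0.29 (adjusted p = 0.0929, and 0.70 without normal 3), and Hadhb, the other trifunctional subunit, at 0.59 ± 0.17 (adjusted p = 0.0991). Without overlap, 7 of these 20 genes were higher in diabetic ventricles and 3 lower, against 12.1% and 13.7% of all tested probe sets. The 3 lists before had 1 of 6, 3 of 16 and 2 of 15 higher, and 2, 1 and 1 lower. The medians of the 4 lists thus lay between -0.09 and 0.18, against 0.33 for the members. Without normal 3 they lay between -0.07 and 0.12, against 0.24, and no test was made of these comparisons.

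**Figure D3:**
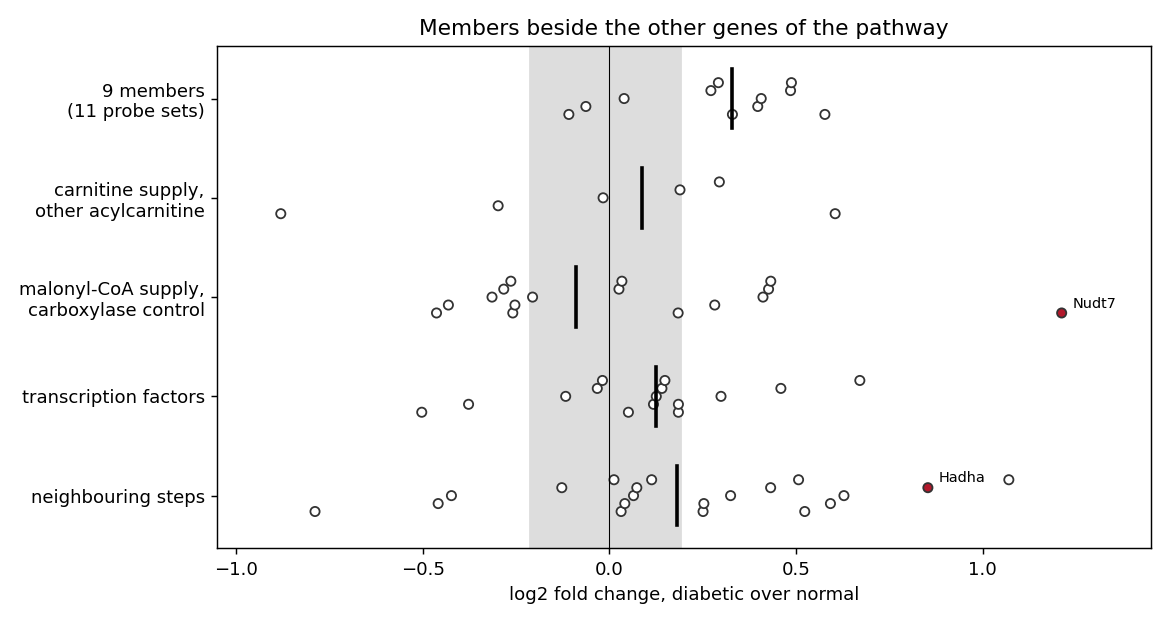
Log2 fold change, diabetic over normal, of the 11 member probe sets and of every tested gene, at its brightest probe set, in 4 related lists. Filled points passed the limma threshold (Nudt7 and Hadha), black lines are medians (0.33 for the members and 0.18 for the neighbouring steps), and the grey band spans the quartiles of all 9518 tested probe sets.

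Over the 6 arrays, the genes most like Crat, the member with the smallest p, were Pxn (paxillin, a focal adhesion protein), Por (cytochrome P450 reductase) and Rab5b (an endosomal GTPase), among 8090 probe sets of other single genes. The likeness was the root mean square difference of centred log2 values, which was 0.05 for each of the 3 and 0.34 for the median probe set. Those most like Slc25a20, the member with the next smallest p, were Wrnip1 (0.05), Cp, ceruloplasmin (0.06), and Rasa3, a Ras GTPase-activating protein (0.06). These 6 genes had log2 differences of 0.44 to 0.49, and 0 of them passed the threshold. Both follow from the way they were picked, which keeps their values close to those of Crat and Slc25a20.

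Markers of the cell types in a ventricle were read beside these values. Of 9 tested cardiomyocyte markers 1 fell, Myh6, at its brightest probe set. That call was lost without diabetic 1 or normal 1, 2 or 3 (limma adjusted p at most 0.0836). A dimmer Myh6 probe set was at -2.37 (limma adjusted p = 0.0115), and at -2.40 without normal 3 (adjusted p = 0.0398). The median of the 9 markers was -0.16, with summed signals of 194480 to 249130 in diabetic and 232320 to 291220 in normal arrays. Of 8 tested fibroblast markers 4 fell (Col1a1, Col1a2, Col3a1 and Lum) and 0 rose, and 3 to 4 did so with 1 array left out, with a median of -0.80 and summed signals of 24212 to 24828 in diabetic and 36225 to 40871 in normal arrays. Of 6 endothelial markers 1 fell, Tie1 (lost without diabetic 2 or 3 or normal 2 or 3, adjusted p at most 0.0873), with a median of 0.25 (0.02 without normal 3) and summed signals of 5660.5 to 6654 in diabetic and 5310 to 6401 in normal arrays. Of the adipocyte markers on the array only Cfd passed the filter, at 199.5 to 220.2 in diabetic and 158.9 to 186.0 in normal arrays, while Plin1, Lep and Pck1 lay below it. Of the brown adipocyte markers only Cidea passed the filter, and it rose (7849 in diabetic and 4411 in normal ventricles, log2 0.83 ± 0.14, limma adjusted p = 0.0219), but the call was lost without diabetic 2 or 3 or normal 2 or 3 (adjusted p at most 0.0873). Of 4 tested atrial markers 1 rose, Nppa, the natriuretic peptide that ventricles under load also make (25244 in diabetic and 3671 in normal ventricles, log2 2.76 ± 0.18, limma adjusted p = 0.00068), and of 2 tested skeletal muscle markers 1 rose, Myh1, a fast myosin heavy chain whose relatives are close in sequence (16776 and 7692, log2 1.13 ± 0.15, adjusted p = 0.00777). Each of these lists also had 1 risen with any 1 array left out. Dimmer Myh1 probe sets were at 1.17 (limma adjusted p = 0.0216), 1.21 (0.0104) and 0.79 (0.0823), while the dimmest was at -1.02 (0.218). The skeletal muscle markers Myh4, Tnnt3 and Actn3 lay below the filter, as did the brown adipocyte marker Ucp1. Of the 5 smooth muscle, 4 macrophage and 2 erythroid markers tested, 0 were called. The part of these shifts in the values of the shuttle genes was not tested.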

How the data were processed

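The deposited values are linear signal intensities, 1 for each array and probe set. How the authors made these intensities is not given in the sources used here. With 2% trimmed at either end, the mean was 500.2 on all 6 arrays, a common scale that was kept. The 57 control probe sets were left out. Probe sets were named from the platform annotation (12783 with 1 gene, 312 with several, 2771 with none), of which 12748 matched a RefSeq table (GRCr8, names and upstream sequence only).

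Probe sets whose mean signal over all 6 arrays exceeded the 40th percentile were tested, which kept 9518 and left out 6348. log2(intensity + 16) was compared with limma 3.58.1 in R 4.3.3 across all of them (lmFit and eBayes, group only, Benjamini-Hochberg). Fold changes on that scale understate the change of dim genes. The code was tested on simulated data. The comparison was repeated without normal 3, and with other pseudocounts (1 and 64), median scaling or quantile normalization, a filter at the 60th percentile or none, an intensity trend, weights per array, a replicate block, and each array left out. A filter on mean log2 signal and the non-overlap counts under other scalings were added after seeing the data. The members, lists and tests were chosen with earlier results of these data known. Genes named beside the members are, in the pathway lists, those called and up to 2 more per list with the smallest p. Added to these are the 3 nearest profiles of the 2 members with the smallest p, and Pdk4 and Angptl4, picked as low in normal 3. Called markers of other cell types, and some well-known genes below the filter, are named outside this rule, after their values were seen. Figures used matplotlib 3.10.9 in Python 3.11.15. The design text speaks of separate rats, so arrays were taken as biological replicates.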

Additional observations from a re-analysis of the deposited data

How the results depend on the processing

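The count of 0 called among the 11 member probe sets held under every alternative run but one, the intensity trend, which called 2 (Crat and Slc25a20); without normal 3 that setting called 0 of them. The separation of every diabetic from every normal array held at 5 member probe sets with quantile normalization, where Cpt1b was lost and at 6 with median scaling. The number called over all tested probe sets moved far more: 429 with a filter at the 60th percentile, 525 with the intensity trend, 18 with no filter, 386 with a pseudocount of 64, 163 with the replicate block and 96 to 175 with 1 array left out, against 245. A filter on the mean log2 signal gave 274. Without normal 3 it was 167, 271, 0 and 173 under the 60th percentile filter, the trend, no filter and the pseudocount of 64, against 96; the cause was not tested. Same-numbered arrays deviated together at r = 0.08, 0.03 and 0.01, with 4 of 6 arrays closest to their own number, and the replicate block called 0 of 11 member probe sets.

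Across all settings the log2 differences stayed at 0.44 to 0.57 for Slc25a20 (adjusted p from 0.0429 to 0.293), 0.40 to 0.54 for Crat (0.0389 to 0.297), 0.26 to 0.49 for Mlycd, 0.24 to 0.40 for Cpt2, 0.19 to 0.35 for Cpt1b, 0.47 to 0.72 for the dimmer Cpt1a probe set (0.0627 to 0.312), 0.22 to 0.53 for the brighter one and 0.11 to 0.36 for Acacb, lowest without diabetic 2. The signs near 0 turned with single arrays: Slc22a5 to 0.13 without diabetic 2 and 0.01 without normal 1 (lowest -0.32), the dimmer Acaca probe set to 0.12 without diabetic 1 and 0.09 without normal 1 (lowest -0.22), and the brighter one to -0.11 without diabetic 2 and -0.10 without normal 1 (highest 0.20). Crat relative to Slc25a20 turned to 0.078 without diabetic 3 and 0.082 without normal 2, and its lowest value with 1 array left out was -0.057. The signals of Slc22a5 and of the dimmer Acaca probe set lie close to the filter, and no detection call was used to set their background.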
